A study of Mus musculus with 8 samples.

Results

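The complement genes of cultured microglia were C1qa, C1qb, C1qc, C2, C3, C4a, C4b, Cfb, Cfp and Serping1. They were chosen by GENCODE symbol as early components of the cascade with 1 fluid-phase inhibitor, and they make up 10 of the 55385 genes in the count table. Poly(A) RNA was sequenced from primary microglia of wild-type mice in 4 control cultures and 4 cultures given IgG, to ask how IgG changes microglial gene expression. The cells came from the neocortex and hippocampus of newborn pups, several brains were pooled into each flask, and the microglia were shaken off the mixed glial layer and replated. IgG was added on DIV15 (day in vitro 15) at 10 µg/ml for 24 h, and the control cultures, labelled untreated, received the vehicle according to the methods. All 8 cultures shared the genotype, the medium with heat-inactivated serum and the age in culture, and a control and an IgG culture of the same number carried the same date. The labels state nothing on shared animals or flasks beyond that date. The main fit paired the cultures by date, so its p-values measure how far the change from control to IgG varied over the 4 pairs. A fit without the pairing, given beside it, measures the spread between the cultures of a group.

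Complement is a cascade of plasma and tissue proteins that tags surfaces for uptake and can end in a membrane pore. C1q, a hexamer built from A, B and C chains, starts the classical pathway when it binds clustered IgG or other ligands. C4 and C2 then form the enzyme that cleaves C3, while factor B and properdin build and steady the C3-cleaving enzyme of the alternative pathway. In brain, microglia are the main source of C1q, and C1q and C3 are known for marking synapses that microglia engulf through complement receptor 3.

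Library totals ran from 21287816 to 23571277 counts in the control group and from 22000403 to 23703216 in the IgG group. A gene with 0 counts could, by counting error alone, still stand at up to 3 counts, which came to 0.124 to 0.147 CPM (counts scaled to a common library total after TMM). Of the labelled cell type's 15 markers 14 were measurable and summed to 6545 to 6984 CPM in control and 6818 to 7714 CPM in IgG libraries. Csf1r stood at 1188 and Cx3cr1 at 442 CPM in the control mean, whereas the homeostatic markers P2ry12 and Tmem119 were low at 6.97 and 5.08 CPM and Siglech was at 0.168 CPM, near the detection limit. The mitochondrial share of counts was 2.41, 2.38, 2.32 and 2.32% in control libraries 1 to 4 and 4.85, 2.21, 5.59 and 1.97% in IgG libraries 1 to 4, so IgG libraries 1 and 3 stood apart. In such bulk samples fewer cells of a type and less RNA per cell cannot be told apart.

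The start-site windows of C3, Cfp and C1qb are shown because C3 and Cfp are members whose level differed between the groups and C1qb is a C1q chain whose level did not pass the test. RefSeq (GRCm38.p6) gave a promoter window for 4 of the 10 members, C1qb, C1qc, C3 and Cfp. The 250 bases before the RefSeq start are printed 5′ to 3′ on the minus strand, on which all 10 genes lie, at chr17:57228137-57228386 for C3, chrX:20931556-20931805 for Cfp and chr4:136886201-136886450 for C1qb. Capitals mark every match to a searched motif.
C3: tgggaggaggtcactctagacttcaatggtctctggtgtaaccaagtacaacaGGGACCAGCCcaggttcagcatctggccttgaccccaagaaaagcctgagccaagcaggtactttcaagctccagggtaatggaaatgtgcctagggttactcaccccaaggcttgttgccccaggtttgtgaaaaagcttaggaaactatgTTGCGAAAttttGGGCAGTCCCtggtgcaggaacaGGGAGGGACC
Cfp: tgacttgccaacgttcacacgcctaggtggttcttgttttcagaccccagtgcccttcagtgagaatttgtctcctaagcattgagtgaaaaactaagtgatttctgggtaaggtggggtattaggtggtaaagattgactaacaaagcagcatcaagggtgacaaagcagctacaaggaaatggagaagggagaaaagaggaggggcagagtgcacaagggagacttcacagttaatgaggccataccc
C1qb: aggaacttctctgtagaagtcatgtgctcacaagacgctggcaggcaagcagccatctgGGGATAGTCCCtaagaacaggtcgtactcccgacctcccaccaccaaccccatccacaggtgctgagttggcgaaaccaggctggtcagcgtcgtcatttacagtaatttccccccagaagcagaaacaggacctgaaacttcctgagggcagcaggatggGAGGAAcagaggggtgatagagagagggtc

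The motifs searched on both strands were the ISRE core GAAA NN GAAA, the GAS core TTCNNNGAA, the C/EBP core TTGCNNAA, the NF-kB core GGGA NNNN CC, the PU.1 core GAGGAA and the TATA box TATAAA, where N is any base and the gaps inside a motif are only for reading. Among all 32851 windows of this length from the same source, 2.98% held the ISRE core, 7.02% the GAS core, 9.56% the C/EBP core, 17.6% the NF-kB core, 23.3% the PU.1 core and 12.4% the TATA box. The C3 window held the C/EBP core at -45 to -38 from the start, read as TTGCGAAA, and the NF-kB core at -197 to -188, at -33 to -24 on the opposite strand and at -10 to -1. The C1qb window held the NF-kB core at -191 to -182, overlapped by its opposite-strand match at -190 to -181, and the PU.1 core at -30 to -25. In the C1qc window at chr4:136892915-136893164, not printed, the NF-kB core lay at -40 to -31 and the PU.1 core at -193 to -188, both on the opposite strand. None of the 6 motifs was in the Cfp window, and the ISRE core, the GAS core and the TATA box were in none of the 4 windows, which says only that these letters do not occur there. A match describes the sequence and is not a site.

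The 10 genes spanned a wide range of levels, with C1q far above the rest. Per kb of exon, the scale on which genes can be compared, the mean control level was 1683 ± 229 CPM per kb (SD, n = 4) for C1qa, 856 ± 118 for C1qb and 692 ± 98.4 for C1qc. C3 followed at 72.5 ± 13.2 CPM per kb, Cfp at 33.4 ± 8.06, C2 at 11.4 ± 1.43 and Cfb at 2.09 ± 0.736. The levels of C2 and Cfb, and their places in this order, depend on how reads in exons they share with a further gene, Gm20547, were assigned, as described with C2. C4a at 0.316 ± 0.0913, C4b at 0.182 ± 0.0694 and Serping1 at 0.00445 CPM per kb closed the order. The control ranges of C1qb and C1qc overlapped, as did those of C4a and C4b, while C1qb exceeded C1qc in each single library. The mean order was the same in the IgG group, at 1732 ± 444 CPM per kb for C1qa, 144 ± 51.2 for C3 and 51.9 ± 7.85 for Cfp. The 10 genes together took 0.501, 0.463, 0.520 and 0.378% of all counts in control libraries and 0.442, 0.571, 0.452 and 0.551% in IgG libraries, and the 3 C1q genes alone took 0.339 to 0.465% and 0.334 to 0.497%.

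**Figure D1:**
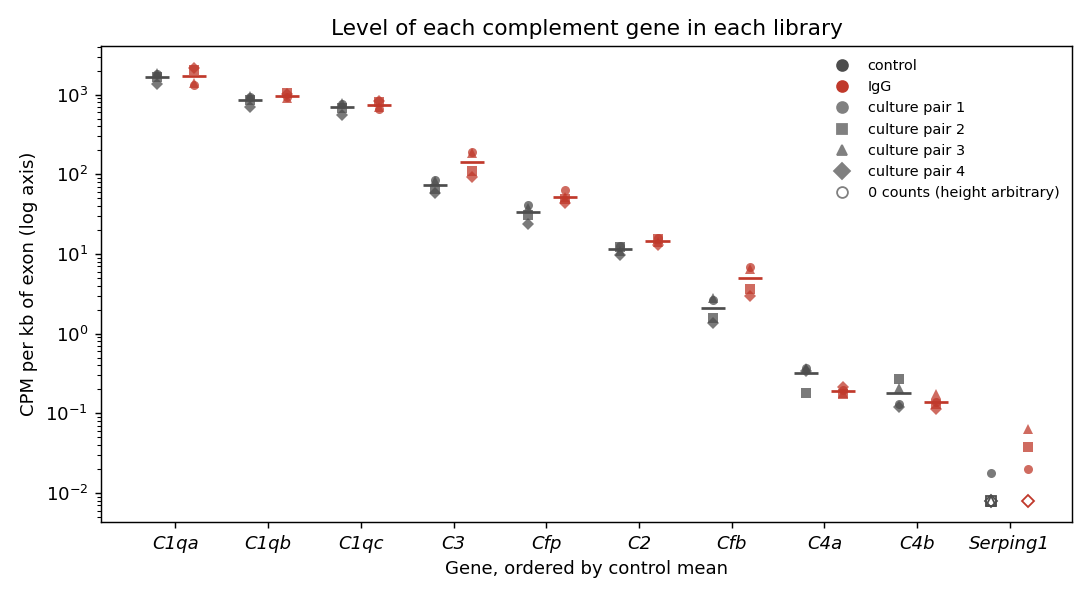
Level of each of the 10 genes in each of the 8 libraries, in CPM per kb of exon on a log axis; points are libraries, symbols mark culture pairs and bars are group means, left out for Serping1. C1qa lies highest, at a control mean of 1683 CPM per kb, C4a and C4b lie below 1, and open symbols mark Serping1 libraries with 0 counts, whose height is not to scale.

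After IgG, the alternative-pathway genes Cfb and Cfp and the central component C3 were higher, and the C1q genes did not pass the test. In the edgeR quasi-likelihood fit with the culture pair as a block and Benjamini-Hochberg adjustment over 17537 genes, 3 of the 9 members tested passed an adjusted p of 0.05, namely Cfb, C3 and Cfp, all higher, where 0.393% of all tested genes (69, all of them higher) passed. All IgG libraries lay above all control libraries for 4 members, C2, C3, Cfb and Cfp, against 2.6% of all tested genes, and the same 4 were higher in all 4 pairs, against 10.4%. The study's criterion, an unadjusted p under 0.01 with an absolute log2 fold change above 0.5, also took C3, Cfb and Cfp, where it took 1.82% of tested genes, and without the pair block it took the same 3 members and 0.844% of tested genes. The median log2 fold change of the 9 tested members was 0.19, beside -0.01 for all tested genes, and 7 of the 9 lay above 0, where 49.1% of all genes did. The members' median ran from 0.05 to 0.28 with a pair left out. It ran from 0.08 to 0.24 with a single library left out (no block), and was 0.41 without both pairs 1 and 3. Without the pair as a block none of the members, and none of all tested genes, passed the adjusted p, whereas 5 members had an unadjusted p under 0.05 in both fits, beside 10.2% of tested genes with the block and 7.01% without it.

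**Figure D2:**
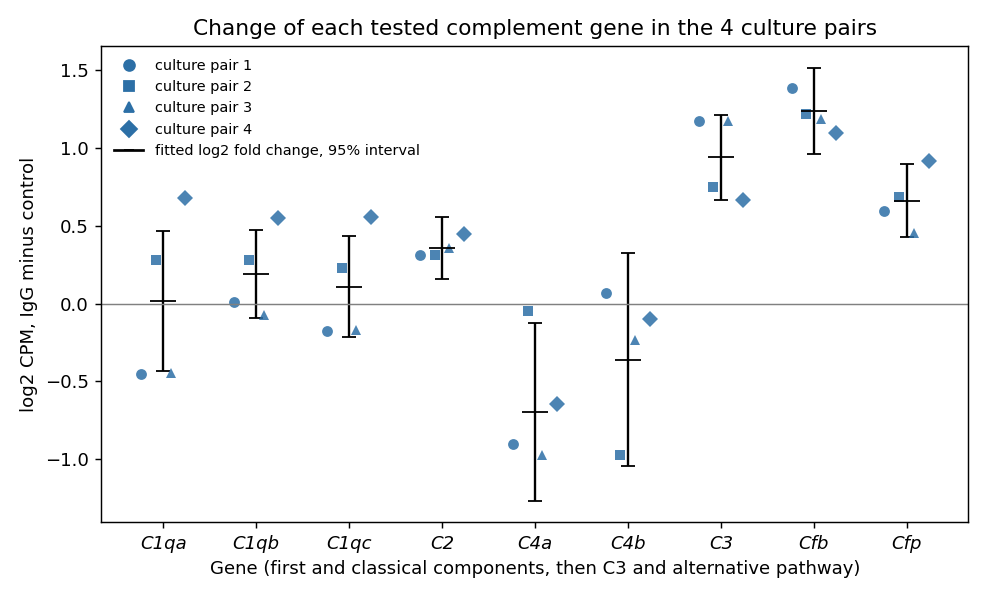
Change from control to IgG within each of the 4 culture pairs for the 9 tested genes, as the difference of log2 CPM, with the fitted log2 fold change and its 95% interval. Cfb (1.09 to 1.38), C3 (0.66 to 1.17), Cfp (0.45 to 0.91) and C2 (0.31 to 0.45) lie above 0 in every pair, and the C1q chains lie on both sides of 0.

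C3 (ENSMUSG00000024164, chr17:57203970-57228136, mm10), which all complement pathways cleave, is the origin of the opsonin iC3b and the anaphylatoxin C3a. Its level was 439, 336, 420.0 and 296 CPM in control libraries 1 to 4 and 988, 563, 945 and 469 CPM in IgG libraries 1 to 4. The lowest IgG library was above the highest control library, and IgG libraries 1 and 3, those with the raised mitochondrial share, were the highest. The mean rose from 373 ± 68.0 to 741 ± 263 CPM (SD, n = 4), with a log2 fold change of 0.94 (SE 0.119, 95% interval 0.66 to 1.21) and an adjusted p of 0.0239 by the edgeR quasi-likelihood test (Benjamini-Hochberg). The change within pairs was 1.17, 0.75, 1.17 and 0.66 on the log2 scale. C3 stands in a list of altered genes that the study drew up on these libraries, so its presence there is not independent evidence. Without the pair block C3 had an adjusted p of 0.643 in edgeR's test (unadjusted p 0.00224), and without pair 1, 2 or 3 it had an adjusted p of 0.105, 0.183 or 0.106. Without both pairs 1 and 3 its log2 fold change was 0.71 (SE 0.147, larger than with all 4 pairs). Its adjusted p was then 0.000468 in edgeR's test, in a fit that passed 1.07% of all tested genes.

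Cfb (ENSMUSG00000090231, chr17:34856374-34862518), factor B, supplies the protease of the alternative pathway's C3 convertase. Its level was 7.42, 4.41, 7.95 and 3.83 CPM in the control libraries and 19.5, 10.4, 18.2 and 8.28 CPM in the IgG libraries, from 89 to 190 and from 182 to 422 counts. The groups did not overlap, and libraries 1 and 3 were the higher in both groups. With a log2 fold change of 1.24 (SE 0.120, 95% interval 0.96 to 1.51), a 2.36-fold rise, Cfb had the largest value of the members when its counts were taken as assigned, at an adjusted p of 0.00956 by the edgeR quasi-likelihood test (Benjamini-Hochberg). It rose by 1.38, 1.22, 1.19 and 1.09 on the log2 scale in pairs 1 to 4, and it ranked 11th of all tested genes by p. Cfb had an adjusted p of 0.669 in edgeR's test without the block (unadjusted p 0.00316) and 0.149 without pair 2. Without both pairs 1 and 3 its log2 fold change was 1.17 (adjusted p 5.29e-06, edgeR). The SE there was 0.204, larger than with all 4 pairs, so the smaller p does not mark a more precise estimate.

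Cfp (ENSMUSG00000001128, chrX:20925454-20931555) encodes properdin, which stabilises that convertase. Control libraries held 72.2, 53.2, 65.6 and 40.6 CPM and IgG libraries 109, 85.4, 89.7 and 76.6 CPM. The groups did not overlap, with a narrow gap between IgG library 4 and control library 1. The log2 fold change was 0.66 (SE 0.102, 95% interval 0.43 to 0.89), a 1.58-fold rise, with an adjusted p of 0.0466 by the edgeR quasi-likelihood test (Benjamini-Hochberg) and changes of 0.59, 0.68, 0.45 and 0.91 in the pairs. The call was the least firm of the 3, since the adjusted p in edgeR's test was 0.692 without the block (unadjusted p 0.00468), 0.169, 0.308 and 0.117 without pair 1, 2 or 3, and 0.0512 with RLE in place of TMM scaling. Without both pairs 1 and 3 its log2 fold change was 0.80 (SE 0.143, larger than with all 4 pairs, adjusted p 1.24e-05, edgeR).

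C2 (ENSMUSG00000024371, chr17:34862604-34898265), the protease of the classical C3 convertase, lies next to Cfb, its paralog. It stood at 49.2, 47.6, 42.2 and 37.0 CPM in control libraries and at 61.0, 59.0, 54.1 and 50.5 CPM in IgG libraries. The groups did not overlap and the differences were small and even, at 0.31, 0.31, 0.36 and 0.45 on the log2 scale in pairs 1 to 4. The log2 fold change of 0.36 (SE 0.0856, 95% interval 0.16 to 0.55) did not pass edgeR's quasi-likelihood test, with a Benjamini-Hochberg adjusted p of 0.210. With trends on exon length and GC content removed in the blocked fit, the adjusted p in edgeR's test was 0.0414.

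C2 and Cfb cannot be read as fully separate genes in this table. Another gene on the same strand, Gm20547 (ENSMUSG00000092511), is annotated across both, and all 3902 bases of its exons are shared with them, covering 42.8% of the exon bases of C2 and 79.5% of those of Cfb. Gm20547 held 1166, 1009, 1048 and 804 counts in control and 1567, 1403, 1298 and 1112 counts in IgG libraries, 46.3 ± 0.408% and 46.8 ± 0.450% of the summed counts of the 3 genes. It was higher in each of the 4 pairs, and its log2 fold change was 0.52 (SE 0.0860), at an adjusted p of 0.0549 in edgeR's test. In sums chosen after seeing the data, the log2 fold change was 0.63 (SE 0.0872, adjusted p 0.0328, edgeR) for Cfb plus Gm20547, 0.44 (SE 0.0830, adjusted p 0.0867) for C2 plus Gm20547 and 0.51 (SE 0.0832, adjusted p 0.0545) for the 3 together. The sum of Cfb and Gm20547 lay below C3 and Cfp in log2 fold change. Most of its counts were those of Gm20547, however, since Cfb alone held 89 to 422 counts. Gm20547 shares 1656 exon bases with C2 and 2246 with Cfb, so the sum also takes in reads of C2 exons. If reads in shared exons were counted for both genes, the sums hold them 2 times. The sums therefore give neither a bound nor a rank for Cfb. The size and rank given for Cfb alone rest on how reads in shared exons were assigned, which the sources used here do not state. C2 also shares 161 exon bases with Zbtb12 on the opposite strand, and the miRNA genes Mir6978 within C3 and Mir6972 within Cfb share 0 exon bases with their hosts.

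The 3 C1q genes, neighbours on chromosome 4, did not pass edgeR's test with all 4 pairs, with the pair block or without it. C1qa (ENSMUSG00000036887, chr4:136895917-136898803) was at 1871, 1749, 1963 and 1419 CPM in control libraries and at 1369, 2124, 1442 and 2270 CPM in IgG libraries. IgG library 1 was the lowest of the 8, IgG library 3 lay above only it and control library 4, IgG libraries 2 and 4 lay above every control library, and the pair changes were -0.45, 0.28, -0.44 and 0.68. Its log2 fold change was 0.01 (SE 0.195, 95% interval -0.43 to 0.46), with an adjusted p of 0.981 in edgeR's quasi-likelihood test. Without both pairs 1 and 3 it was 0.48 (unadjusted p 0.00251, adjusted p 0.153, edgeR).

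C1qb (ENSMUSG00000036905, chr4:136880129-136886187) was at 1000.1, 929, 1044 and 751 CPM in control and at 1007, 1125, 992 and 1098 CPM in IgG libraries. C1qc (ENSMUSG00000036896, chr4:136889804-136893065) was at 1452, 1319.8, 1498 and 1075 CPM in control and at 1284, 1546, 1330.0 and 1582 CPM in IgG libraries. Both sets of groups overlapped, control library 4 was the lowest for each chain, and the sign of the pair changes differed between pairs, from -0.07 to 0.55 for C1qb and from -0.18 to 0.56 for C1qc. The log2 fold changes were 0.19 (95% interval -0.09 to 0.47) and 0.11 (95% interval -0.22 to 0.43), with adjusted p of 0.605 and 0.787 in edgeR's test, and these intervals still allow changes of up to 0.47 and 0.43 on the log2 scale. Without both pairs 1 and 3 the values were 0.41 and 0.39 (unadjusted p 0.00703 and 0.0117, adjusted p 0.277 and 0.351, edgeR), and with length and GC trends removed C1qb had 0.29 and C1qc 0.21 (unadjusted p 0.0048 and 0.0336, adjusted p 0.163 and 0.317).

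The proportions of the chains were nearly constant over the control libraries and ranged more widely over the IgG libraries. C1qa took 43.3, 43.8, 43.6 and 43.7% of the summed C1q counts in control libraries 1 to 4 and 37.4, 44.3, 38.3 and 45.9% in IgG libraries 1 to 4. C1qb took 23.1, 23.2, 23.2 and 23.2% and then 27.5, 23.5, 26.4 and 22.2%, while C1qc took 33.0 to 33.6% and 32.0 to 35.3%. The share of C1qa was lowest, and that of C1qb highest, in IgG libraries 1 and 3, where the mitochondrial share of counts was 4.85 and 5.59%. The part of whatever sets these libraries apart in the C1q values was not tested. The group means of the C1qa share, 43.6 ± 0.217% and 41.5 ± 4.24% (SD, n = 4), differed by less than the spread of the IgG libraries, and the difference in spread itself was not tested.

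**Figure D3:**
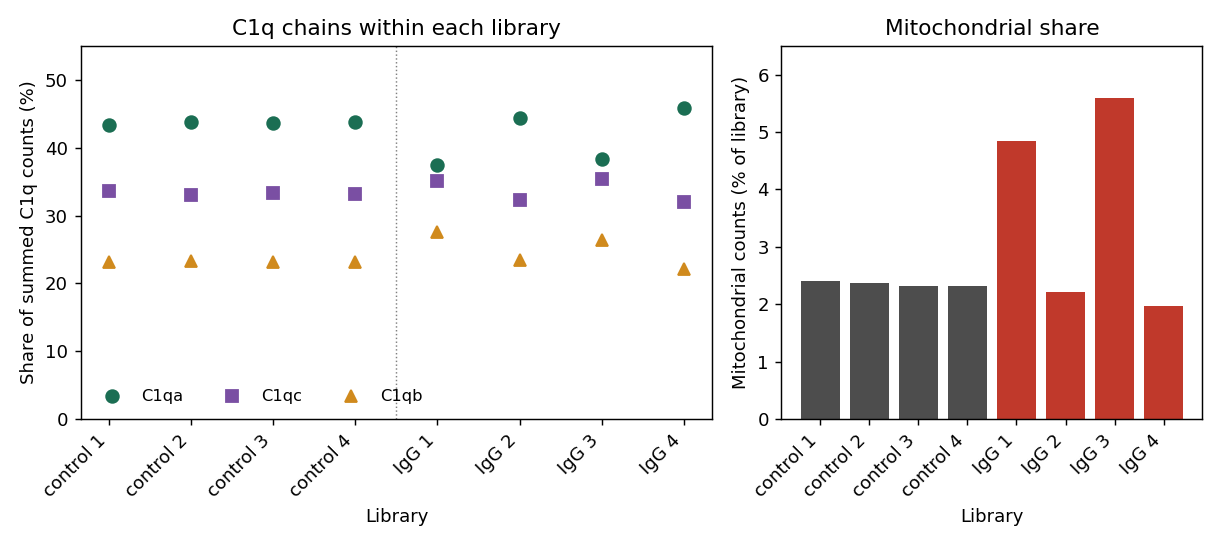
Share of each C1q chain in the summed counts of C1qa, C1qb and C1qc, in percent, for each library (left), beside the mitochondrial share of all counts in percent (right). The 4 control libraries lie within 43.3 to 43.8% for C1qa, and IgG libraries 1 and 3 lie at 37.4 and 38.3%, with mitochondrial shares of 4.85 and 5.59%.

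C4a and C4b, the copies of the C4 gene in mouse, were expressed at a trace. C4a (ENSMUSG00000015451, chr17:34809092-34823464) had 56, 25, 55 and 49 counts in control and 26, 25, 23 and 29 counts in IgG libraries, or 2.32, 1.13, 2.30 and 2.11 against 1.20, 1.09, 1.13 and 1.32 CPM. Control libraries 1, 3 and 4 were above all IgG libraries and control library 2 fell among them, so the groups overlapped, while within pairs C4a was lower in all 4, as 8.47% of tested genes were, with changes of -0.90, -0.05, -0.97 and -0.64 on the log2 scale. The log2 fold change was -0.69 (SE 0.248, 95% interval -1.26 to -0.12), with an unadjusted p of 0.0230 and an adjusted p of 0.427 in edgeR's quasi-likelihood test. C4a met the study's criterion in the fits with the likelihood ratio test, with all genes of at least 1 count, and, without the block, without control replicate 2. It stands in the same list the study drew up on these libraries.

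C4b (ENSMUSG00000073418, chr17:34728380-34743882) had 18, 34, 28 and 16 counts in control and 17, 17, 20 and 14 counts in IgG libraries. The groups overlapped, and its log2 fold change of -0.36 (SE 0.297) had an adjusted p of 0.670 in edgeR's test. The C4b value was -0.10 without pair 2, -0.15 without control replicate 2 (no block) and -0.64 without both pairs 1 and 3. The copies are hard to separate, since 35.2% of the 50-base windows of the longest C4b transcript, and 16.5% of its 100-base windows, occur unchanged in C4a transcripts. In their sum, chosen after seeing the data, there were 74, 59, 83 and 65 counts in control and 43, 42, 43 and 43 counts in IgG libraries, groups that did not overlap, with a log2 fold change of -0.60 (SE 0.176), an unadjusted p of 0.00899 and an adjusted p of 0.341 in edgeR's test.

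Serping1 (ENSMUSG00000023224, chr2:84765387-84775444), the C1 inhibitor that shuts off C1r and C1s, was hardly read. It had 1, 0, 0 and 0 counts in control and 1, 2, 3 and 0 counts in IgG libraries. All values were at or under the limit of 3 counts, so it was not tested and no fold is given.

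Of 51 other complement genes, 26 were measurable and 8 had 0 counts in all libraries. None of the 26 passed the adjusted p by edgeR's quasi-likelihood fit, with the block or without it, nor in limma-voom, where 0.393, 0 and 0.502% of all tested genes passed. With shares this small, 0 of 26 is no result about these genes. At an unadjusted p under 0.05 there were 5 higher and 2 lower, beside 6.35% and 3.85% of all tested genes. With DESeq2 1 passed the adjusted p (C3ar1), beside 1.33% of all tested genes. Their median log2 fold change was -0.05, with 11 of 26 above 0.

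The proteases that C1q carries were low, with C1ra and C1rb tested out of 4 and C1ra at mean levels of 4.07 and 5.95 CPM in the control and IgG groups (log2 fold change 0.52, SE 0.191, unadjusted p 0.0269 in edgeR's test). Of 9 lectin-pathway genes 4 were tested, and Masp1, a protease of that pathway, was at 11.6 and 14.9 CPM (0.34, SE 0.133, unadjusted p 0.0330, edgeR). Colec12 of the same list was well expressed, at 438 and 432 CPM (-0.03, SE 0.113). The gene of factor D, Cfd, which activates factor B, had at most 1 count in any library. Of the 7 terminal components that form the pore only C8g was tested, at 2.31 and 1.86 CPM. The 6 others had at most 3 counts in any library.

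Of 9 receptors 7 were tested, and their mean control levels ran from 0.812 CPM for C5ar2 to 799 CPM for Itgb2. C3ar1, the receptor of C3a, was at 697, 580, 684 and 562 CPM in control and at 1309, 691, 1253 and 617 CPM in IgG libraries. It was higher in all 4 pairs, most in pairs 1 and 3 (0.91 and 0.87) and least in pairs 2 and 4 (0.25 and 0.13), and the groups overlapped. Its log2 fold change was 0.54 (SE 0.152) with an adjusted p of 0.307 in edgeR's test, and C5ar1, the C5a receptor, had 0.41 (SE 0.0936) with an adjusted p of 0.170, and C5ar1 passed in edgeR's likelihood ratio test. By the study's criterion 1 of the 26, C3ar1, was taken with the pair block (unadjusted p 0.00704, edgeR) and 0 without it, beside 1.82 and 0.844% of all tested genes. C3ar1, like C3 and C4a, stands in the list the study drew up on these libraries, as does the marker Aif1, so its presence there is not independent evidence.

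The subunits of complement receptors 3 and 4, which bind iC3b, were at 675 and 742 CPM for Itgam (log2 fold change 0.12, SE 0.110), 733 and 645 CPM for Itgax (-0.18, SE 0.0901) and 799 and 753 CPM for the shared chain Itgb2 (-0.08, SE 0.0887). None of these passed edgeR's test, with adjusted p of 0.691, 0.528 and 0.735. Vsig4 and Cr2, other receptors of C3 fragments, had at most 5 and 3 counts in a library and were not tested.

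Of 10 membrane regulators 9 were tested. Cd55, which speeds the decay of C3 convertases, was at 0.497, 0.586, 0.125 and 0.645 CPM in control and at 0.878, 1.48, 0.686 and 0.727 CPM in IgG libraries, from 3 to 34 counts, with a log2 fold change of 1.04 (SE 0.382, adjusted p 0.440 in edgeR's test). Cd59b, a blocker of the pore, was at 3.73, 3.47, 3.26 and 3.27 CPM in control and at 2.49, 3.13, 1.57 and 1.45 CPM in IgG libraries (log2 fold change -0.71, SE 0.220, adjusted p 0.364). The groups of Cd55 and of Cd59b did not overlap, but neither passed the adjusted test, and Csmd1 at 1.55 and 0.868 CPM did not either (-0.77, SE 0.283, adjusted p 0.443, edgeR). Of 11 fluid-phase regulators 3 were tested and none had an unadjusted p under 0.05 in edgeR's test.

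**Figure D4:**
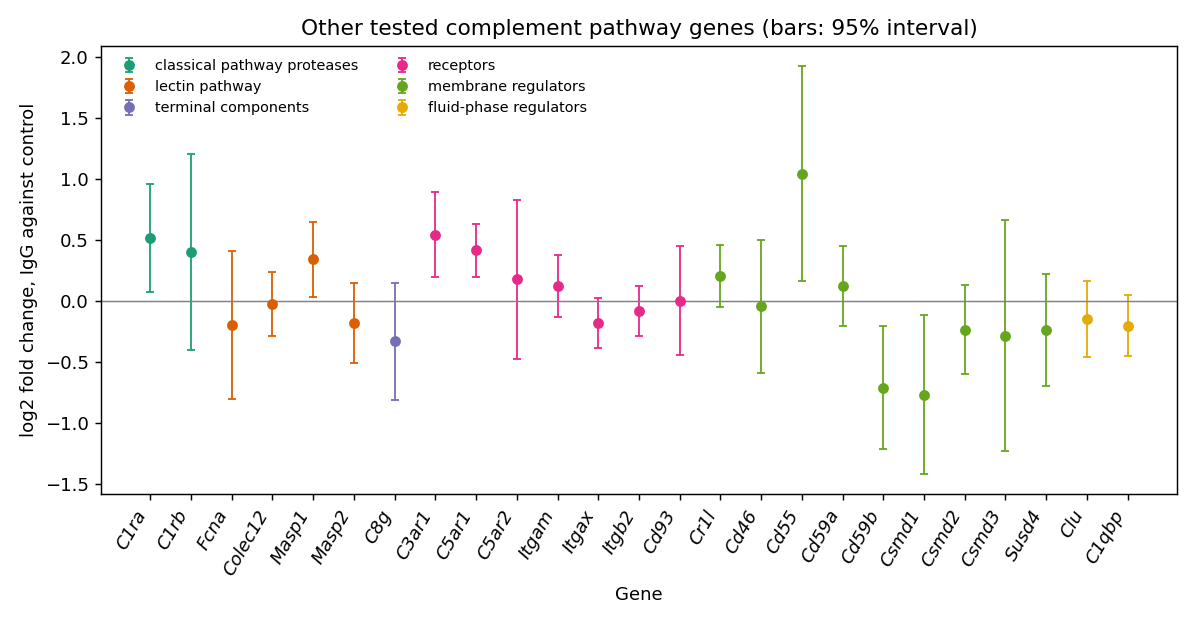
Fitted log2 fold change (IgG against control) with its 95% interval for 25 of the 26 other complement genes tested, coloured by their place in the cascade. None reached an adjusted p of 0.05, as 0.393% of all tested genes did, and the values lie from -0.77 for Csmd1 to 1.04 for Cd55.

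Markers of other cell types were read beside these genes. The 8 markers of border-associated macrophages summed to 397 to 521 CPM in control and 540 to 733 CPM in IgG libraries without overlap, 5 of the 6 tested were higher, and Ms4a7 passed edgeR's adjusted test (log2 fold change 0.61, adjusted p 0.0381). Within that list Mrc1 was at mean levels of 67.0 and 79.0 CPM in the control and IgG groups, Clec12a at 196 and 255 CPM (log2 fold change 0.37, adjusted p 0.227, edgeR) and Cbr2 at 0.591 and 1.31 CPM (1.23, adjusted p 0.220). Lyve1 and Cd163 of the same list were at or near 0, at 0.0668 and 0.0760 CPM in control and 0.0115 and 0.0359 CPM in IgG libraries. Of the 14 microglial markers tested 11 were above 0 in log2 fold change, where 49.1% of all tested genes were. At an unadjusted p under 0.05 in edgeR's test 7 of them were higher, beside 6.35% of all tested genes. Aif1 and Fcrls passed the adjusted test, at 0.69 and 0.83 (adjusted p 0.0331 and 0.0329, edgeR), where 0.393% of all tested genes passed. The 10 astrocyte markers summed to 174 to 199 CPM in control and 151 to 193 CPM in IgG libraries, and the 10 markers of the oligodendrocyte lineage to 1233 to 1879 CPM and 1061 to 1766 CPM, 9 and 10 of them tested and none past the adjusted test. The fitted value was below 0 for 8 of the 9 astrocyte markers and for all 10 of the oligodendrocyte lineage. Since 0 of the 17537 tested genes passed the adjusted test as lower, its outcome says nothing on a fall. At an unadjusted p under 0.05 in edgeR's test 0 of the astrocyte and 1 of the oligodendrocyte lineage markers were lower, beside 3.85% of all tested genes. That 1 was Olig2, at -0.50 (unadjusted p 0.00376), lower in all 4 pairs, as 8.47% of tested genes were. Neuronal markers summed to 42.8 to 69.4 CPM in control and 36.9 to 56.2 CPM in IgG libraries, with 6 of 7 below 0 and 1, Tubb3, lower at an unadjusted p under 0.05 (0.0469, edgeR). Endothelial markers summed to 129 to 167 and 123 to 139 CPM, nearly all of it Flt1, at mean levels of 139 and 122 CPM. Flt1 was below 0 (-0.18), and the low Kdr (7.43 and 8.01 CPM), Cdh5 and Pecam1 were above 0, with 1, Cdh5, at an unadjusted p under 0.05 (0.00329, edgeR). Those of fibroblasts and mural cells summed to 7.19 to 11.4 and 7.99 to 11 CPM, with 5 of 6 above 0. None of the markers in these lists passed the adjusted test. Markers of neutrophils and lymphocytes summed to at most 2.00 CPM, and S100a9, Ly6g, Cd3e and Nkg7 were among those at 0. The part of all these markers in the values of C3, Cfb and Cfp was not tested.

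The likeness of the members' log2 CPM across the 8 libraries is described here with points that share culture dates and group. Pearson's r was 0.986 between C3 and Cfb, 0.944 between Cfb and Cfp and 0.910 between C3 and Cfp, and it was 0.936 between C1qb and C1qc but 0.654 between C1qa and C1qb. C2 lay close to Cfp at 0.909, to C3 at 0.806 and to Cfb at 0.798, and C1qb was nearer to Cfp, at 0.759, than to C1qa, whereas C1qa had -0.34 with C3, -0.21 with Cfb and 0.03 with Cfp. Without regard to the culture pairs, the genes outside the members with the most similar pattern were Lgals9, Fcrl5 and Tmem8 for C3 (r of 0.995, 0.995 and 0.993), Fcrl5, Vav1 and Tmem8 for Cfb (0.990, 0.990 and 0.988) and Lst1, Aif1 and Slfn2 for Cfp (0.991, 0.989 and 0.986). C2 was closest to Ms4a7, its overlapping gene Gm20547 and Ppp6r1 (0.971, 0.962 and 0.958). For C1qa they were Ptpn18, Pbx2 and Txndc17 (0.985, 0.974 and 0.971), for C1qb Snx20, Ogfr and Gm15429 (0.984, 0.954 and 0.949) and for C1qc Gm15429, Eva1b and Gm15264 (0.975, 0.964 and 0.957). The low-count C4a was closest to Ahnak2, Pde4a and Tgif1 (0.958, 0.949 and 0.920) and C4b to Gm5914, Gm44822 and Lsm11 (0.949, 0.920 and 0.899). After each culture pair was centred, which leaves only the 4 changes within pairs, the nearest genes were Sp100, H2-M2 and Xaf1 for C3, Oasl1, Rnf17 and Igtp for Cfb, Gm15899, Marco and 9330102E08Rik for Cfp and Epsti1, Ebi3 and Ifi214 for C2, each at 0.998 or above. In that ranking they were Gm15264, Prdx6 and Rec114 for C1qa, Cdt1, Psma4 and Tmem109 for C1qb, Rpl10a-ps1, Hcls1 and Fut7 for C1qc, Spopl, Pde4a and Gm26558 for C4a and Dlx1as, Drp2 and Thsd1 for C4b, each at 0.986 or above. Of the genes named for a member by the first ranking, only Pde4a for C4a was also named for it by this one. With 17537 genes over 8 libraries such values are a ranking and no test.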

How the data were processed

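The authors deposited whole-number counts per Ensembl gene for 8 libraries, made with HISAT2 2.2.1, SAMtools 1.12, Picard 2.26.3 and featureCounts on GRCm38 according to the submitters' processing notes. The annotation, the use of strand and the treatment of reads with several alignments are not given in the sources used here, so overlapping, antisense and near-identical genes are uncertain.

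Of 55385 identifiers 55144 were found in GENCODE M21 (mm10), which gave symbols, coordinates and exon lengths. Counts were scaled by TMM and filtered with filterByExpr, which kept 17537 genes. The edgeR 4.0.16 quasi-likelihood model (R 4.3.3) had group and replicate number as terms and Benjamini-Hochberg adjustment over all tested genes. Same-numbered libraries share a date in the labels, and their deviations from the group means correlated at 0.437, 0.358, 0.228 and 0.296 over 11893 genes, against -0.367 to 0.233 for different numbers. Log2 CPM used a prior count of 2. CPM per kb was CPM divided by exon length. DESeq2 1.42.0 and limma 3.58.1 (voom) were alternatives, with other scalings, filters, left-out libraries and removal of length and GC trends. Summed overlapping genes were added after seeing the data. No 2 libraries of a group agreed within sampling noise, with a chi-square per degree of freedom of at least 5.

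The members, lists and alternatives were chosen with earlier results of these data known. Named were all members, annotated overlapping genes, receptors of C3 fragments, and other complement genes past the adjusted p or at an unadjusted p under 0.05. The 3 genes most like each tested member in each ranking were also named. Other genes given as members of a list are named as examples chosen after their values were seen. Some genes of the lists are not reported here by name.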

Additional observations from a re-analysis of the deposited data

How the results depend on the processing

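Whether members passed the adjusted p depended on the design and the scaling. In edgeR's quasi-likelihood test 3 members passed with the replicate block and 0 without it, as was so for 69 and 0 of all tested genes. With a pair left out 0 to 3 passed: only Cfb without pair 1 or 3, none without pair 2 and all 3 without pair 4. Without both pairs 1 and 3 all 3 passed, although the SE of each was larger than with all 4 pairs. The smaller p of that fit thus does not mark more precise estimates. Of all tested genes 14, 0, 16 and 182 passed without pair 1, 2, 3 or 4 and 190 without both pairs 1 and 3. With RLE, upper quartile or total-count scaling, or at least 10 counts in every library, 2 passed (C3 and Cfb), beside 0.371, 0.314, 0.211 and 0.39% of all tested genes. With length and GC trends removed 4 passed (C2 joined), beside 1.2% of all tested genes. By the study's criterion 3 members passed with or without the block, and 1 to 3 when a single library was left out without the block, with C3 alone past it without control replicate 4 and C3 and C4a without control replicate 2. In the fits with a single library left out the criterion took 0.489 to 3.43% of all tested genes. With the likelihood ratio test, or with all genes of at least 1 count, 4 met it (C4a joined), but so did more of all tested genes, 3.01 and 2.07%. Of the other complement genes 1 passed the adjusted p in each of 3 settings, C3ar1 when genes with at least 1 count were kept and with DESeq2, and C5ar1 with the likelihood ratio test. Of all tested genes 1.2, 1.33 and 1.86% passed in these settings. The log2 fold changes of C3 (0.71 to 1.16), Cfp (0.49 to 0.80) and, unsummed, Cfb and C2 stayed above 0 in all settings. C1qa turned to -0.0852 with total counts, -0.0237 with upper quartile and -0.0138 with at least 10 counts in every library. With single libraries or pairs left out C1qa ran from -0.2226 to 0.1731, with -0.0603 without control replicate 4, -0.0469 without IgG replicate 2 and -0.0887 without IgG replicate 4 (no block), and C1qc ran from -0.0571 without pair 4 to 0.2051, with -0.00184 without control replicate 4 (no block). The cause was not tested. Scaling by total counts moved the median of all genes to -0.11.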
